A study of Homo sapiens with 16 samples.

Results

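The libraries described here asked what MUTZ-3 cells lose and gain when *EVI1* is knocked down strongly with the shRNA shEVI1-2532. MUTZ-3 is an established acute myeloid leukaemia (AML) line that carries inv(3), the inversion which places the *EVI1* gene beside a hijacked enhancer. Of the 16 RNA-Seq libraries of the series, 4 were compared, namely shEVI1-2532 and a non-targeting control shRNA (NTC) on day 3 and on day 6, with 1 library for each shRNA and day. All 4 came from the same line, which was grown with GM-CSF and medium conditioned by the bladder carcinoma line 5637. The cells had been transduced with a lentiviral pLKO.1-Puro vector and selected with puromycin, so vector and selection are common to both groups. A second *EVI1* shRNA, shEVI1-2531, also sequenced once on day 3 and once on day 6, is used only for the difference between the shRNAs, and it shares the NTC libraries.

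*EVI1* is the short form of the *MECOM* locus, a zinc finger transcription factor that is active in blood stem cells and is switched off as myeloid cells mature. In AML with a rearranged chromosome band 3q26 it is held on, and it is known as a driver of a stem cell-like state with a poor outlook. Monocytes, a mature end of the myeloid line, are known by the receptor *CD14*, by lysozyme (*LYZ*), by integrins that carry them out of the blood, and by lysosomes and granules filled with hydrolases and proteases.

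Only the raw gene counts that the authors deposited were used. The NTC libraries held 120716213 and 109101796 counts on day 3 and day 6 and the shEVI1-2532 libraries 100292428 and 100606170, and CPM are these counts set to a common library size and scaled with TMM, a factor that sets the bulk of genes level between libraries. On that scale 3 counts, the bound used where a library had 0 counts of a gene, stood for 0.0232 to 0.0343 CPM. CPM values are not divided by gene length and are compared only within a gene. *PTPRC* (CD45), the pan-leukocyte marker, was 359 and 305 CPM in the NTC libraries of day 3 and day 6 and 349 and 348 CPM with shEVI1-2532, and *CD33* and *MPO*, both myeloid, were also abundant, with *MPO* at 352888 to 421281 counts with NTC. The 2 days stand in for replicates, so the error of every fold change is the departure between days, pooled over genes by edgeR, and whether the days came from separate transductions is not stated. Mitochondrially encoded genes took 2.49% and 3.40% of the counts with NTC and 4.0% and 4.21% with shEVI1-2532 on day 3 and day 6, and its part in the results was not tested.

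The target itself was lower on both days. *MECOM* (ENSG00000085276, chromosome 3, 169083499 to 169663775, minus strand, GRCh38 coordinates of the files) had 5123 counts with NTC and 452 with shEVI1-2532 on day 3, and 4825 and 405 on day 6. Scaled, these were 40.8 and 37.4 CPM in the NTC libraries of day 3 and day 6 and 5.16 and 4.33 CPM with shEVI1-2532. The pairs do not overlap, and the mean log2 fold change was −3.05 (SE 0.19), which leaves 12.1% of the control level (adjusted p = 1.05e-12, quasi-likelihood test of edgeR, Benjamini-Hochberg). With shEVI1-2531, which had 1171 and 2114 counts, the log2 ratios to NTC were −1.62 and −1.09, and the difference between the shRNAs was −1.70 (95% confidence interval −2.13 to −1.26, adjusted p = 0.000138) by edgeR. Neither shRNA's sequence was used here, so where on the transcript it lies is not given. The count covers the whole *MECOM* gene, in which *EVI1* and the longer MDS1-EVI1 transcripts are not told apart.

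A gene was called when its adjusted p was under 0.05 and its log2 fold change beyond 1, and where a gene is said to have risen, changed or been at a value, that value is the log2 fold change over both days with its standard error (SE). Of 18120 genes tested, 2043 were called higher (11.3%) and 2130 lower (11.8%), and these shares are the background against which each group below can be read. All but 1 of the higher and all but 1 of the lower genes moved the same way on day 3 and on day 6. That count is largely set by the call, because the error of the fit is the departure between days. A gene with opposite signs on the days is seldom called. On each day by itself, 1590 of the higher genes were more than 1 log2 unit above NTC and 1670 of the lower genes more than 1 below it. The median log2 ratio of the higher genes was 1.62 on day 3 and 1.62 on day 6, and that of the lower genes −1.65 and −1.70. Log2 fold changes above 3 belonged to 211 genes and below −3 to 327 genes. Scaling to the library totals alone, without TMM, shifted the median of all genes by −0.30 and turned the split into 1317 higher and 3282 lower, or 28.6% of calls higher in place of 49.0%, so small changes are to be read relative to the bulk of genes.

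**Figure D1:**
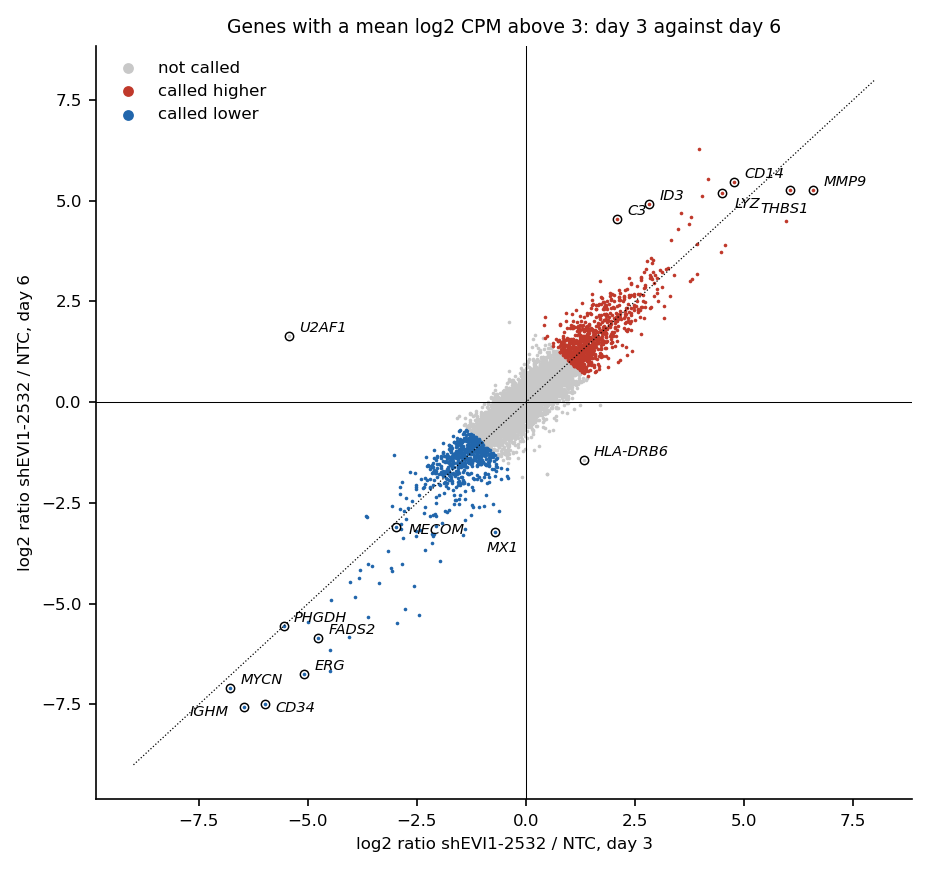
Log2 ratio of shEVI1-2532 to NTC on day 3 (horizontal) and day 6 (vertical) for each gene with a mean log2 CPM above 3, with genes called higher in red, called lower in blue and others in grey, and the dotted line where both days are equal. Most genes lie near that line, MX1 lies below it with −0.71 on day 3 and −3.21 on day 6, and U2AF1 and HLA-DRB6 have opposite signs on the 2 days.

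Most genes that mark blood stem and progenitor cells fell on both days. *CD34*, the sialomucin used to isolate such cells, was 291 and 647 CPM in the NTC libraries of day 3 and day 6 and 4.60 and 3.63 CPM with shEVI1-2532. The NTC level on day 6 was above that on day 3, while both knockdown libraries were below 5 CPM, and the log2 fold change was −6.73 (SE 0.26). Of 16 progenitor surface genes tested, 10 were lower and 1 higher, with a median log2 fold change of −1.38 against 0.00 over all genes tested. The ligand *ANGPT1*, which keeps stem cells quiet through the receptor TIE2, went from 129 to 7.72 CPM on day 3 and from 84.2 to 1.49 CPM on day 6, a log2 fold change of −4.87 (SE 0.27). *ADGRG1* (GPR56), an adhesion receptor of leukaemic stem cells, changed by −3.61 (SE 0.21), and *FLT3*, a receptor tyrosine kinase of early progenitors, had 30 and 19 counts with NTC and 1 and 1 with shEVI1-2532, log2 ratios of −4.39 (−7.26 to −1.51 by counting error) on day 3 and −3.78 (−6.68 to −0.88 by counting error) on day 6. Smaller falls were seen in *ESAM* with −1.53 (SE 0.27) and *CD109* with −1.42 (SE 0.21). *KIT*, the stem cell factor receptor, was 34.2 and 18.8 CPM with NTC and 11.5 and 9.49 CPM with shEVI1-2532, a log2 fold change of −1.28 (SE 0.19). Of the 16, 4 had log2 fold changes above 0, and the only member called higher was *CD38*, a marker gained as progenitors mature. It was at 3.50 (SE 0.41), with a mean log2 CPM not above 1, so it lay at a low level. In a bulk sample, fewer cells that carry a transcript and less of it in each cell cannot be told apart.

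**Figure D2:**
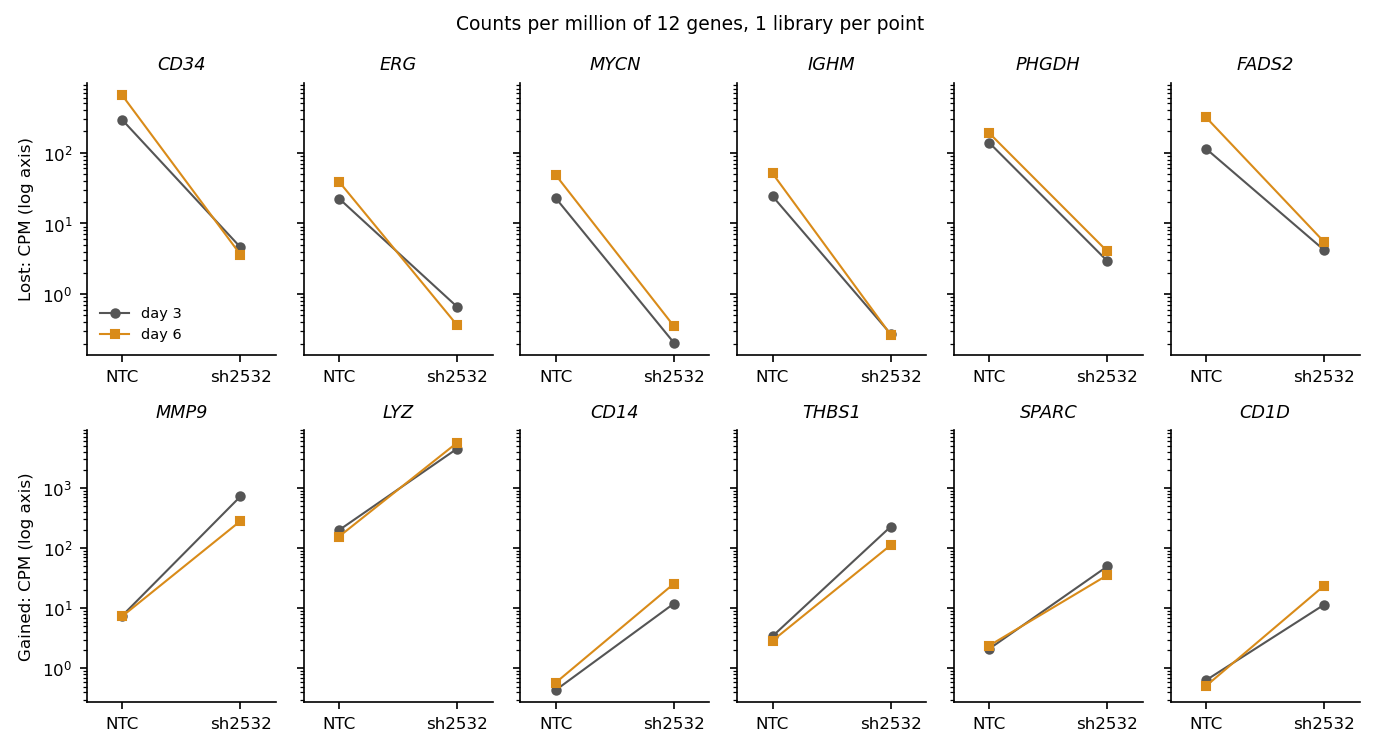
CPM on a log axis of 6 genes that fell (top) and 6 that rose (bottom), with each line joining the NTC and the shEVI1-2532 library of 1 day, so that every point is 1 library. In all 12 genes the shEVI1-2532 libraries of both days lie on the same side of both NTC libraries.

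The transcription factors of the stem cell programme were split. Among 24 tested, 10 were lower and 1 higher, with a median log2 fold change of −0.64. *HLF*, a factor of long-term stem cells, had 456 and 1766 counts with NTC and 7 and 2 with shEVI1-2532, log2 ratios of −5.50 (−6.58 to −4.43 by counting error) on day 3 and −9.32 (−11.32 to −7.32 by counting error) on day 6. *MYCN*, a *MYC* family oncogene, was 22.8 and 48.3 CPM with NTC and 0.206 and 0.353 CPM with shEVI1-2532, so 0.801% of the control level remained. *ERG*, an ETS factor of stem cells and of several leukaemias, went from 22.5 to 0.662 CPM on day 3 and from 39.0 to 0.364 CPM on day 6, a log2 fold change of −5.87 (SE 0.29). *BCL11A* changed by −2.95 (SE 0.20), and *SPINK2*, a protease inhibitor included for its use in stem cell signatures, by −2.68 (SE 0.22). *MEIS1* with −2.64 and *TAL1* with −2.52 were also called lower. By contrast *GATA2*, whose enhancer drives *EVI1* in inv(3), was at −0.82 (SE 0.15) and not called, *RUNX1* was at 0.53 and *MYB* at −0.18. *LMO2* rose by 1.25 (SE 0.15), from 41.2 and 46.9 CPM to 96.5 and 113 CPM.

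Most of the HOX genes tested, which encode the homeobox factors that set positional identity and keep progenitors dividing, fell. Of 15 tested, 10 were lower and 0 higher, with a median log2 fold change of −1.29, and without the NTC library of day 6 the lower genes numbered 6 of 13 tested. *HOXB2* had 581 and 1164 counts with NTC and 9 and 11 with shEVI1-2532, a log2 fold change of −5.90 (SE 0.35). *HOXB4* changed by −1.31 (SE 0.21) and *HOXB3* by −1.26 (SE 0.26). *HOXA9*, the HOX gene most used by AML, was 27.6 and 32.2 CPM with NTC and 15.0 and 14.2 CPM with shEVI1-2532, and its log2 fold change of −1.03 (SE 0.18) lies just past the threshold of size. In the same cluster *HOXA10* was not called, at 0.11, nor was *HOXA13*, at −0.15. Called HOXA genes with larger falls, *HOXA5*, *HOXA6* and *HOXA3*, ranged from −4.60 to −3.38. Overlapping antisense transcripts of this cluster cannot be told apart from them if the counting did not use strand. Of the called HOX genes only *HOXB2*, *HOXB4*, *HOXB3* and *HOXA9* had a mean log2 CPM above 1, so the others lay at a low level.

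Most of the monocyte genes tested rose. *CD14*, the co-receptor for bacterial lipopolysaccharide, was 0.438 and 0.581 CPM in the NTC libraries of day 3 and day 6 and 12.0 and 25.6 CPM with shEVI1-2532, a log2 fold change of 5.13 (SE 0.26). Of 38 monocyte surface and pattern recognition genes tested, 27 were higher and 0 lower, with a median of 1.62. *TLR8*, an endosomal sensor of RNA, had 16 and 18 counts with NTC and 215 and 574 with shEVI1-2532, a log2 fold change of 4.89 (SE 0.36). The inhibitory lectin *SIGLEC7* rose from 1.89 to 18.1 CPM on day 3 and from 2.15 to 21.8 CPM on day 6, *TREM1*, which amplifies inflammation, by 3.01 (SE 0.27), and *LY96* (MD-2), the partner of *TLR4* in binding lipopolysaccharide, by 2.95 (SE 0.29). *TLR4* itself was at 0.86 and *CSF1R*, the receptor for the monocyte growth factor M-CSF, at 0.29, and neither was called. *CD163* had 0 and 5 counts with NTC and 169 and 197 with shEVI1-2532, and *FCGR3A* 1 and 1 against 24 and 81, both macrophage receptors, which lay below the level the naming rule asks for and were named after their values were seen. *FCGR3A* has a near-identical neighbour, *FCGR3B*, and its count is uncertain.

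Factors that direct monocyte development rose in part, 12 of 24 being higher and 1 lower, with a median of 1.31. *KLF4*, which drives monocyte commitment, went from 0.231 to 1.51 CPM on day 3 and from 0.434 to 6.37 CPM on day 6, a log2 fold change of 3.35 (SE 0.33). *KLF2* rose by 2.16 (SE 0.26), *CEBPD* by 1.74 (SE 0.15) and *TFEC*, a relative of *MITF* made in macrophages, by 2.01 (SE 0.20). *ID2*, an inhibitor of basic helix-loop-helix factors, was 14.7 and 12.7 CPM with NTC and 47.9 and 102 CPM with shEVI1-2532, so its day 6 level with shEVI1-2532 was above the other 3 libraries. The master factors of the lineage moved less, with *SPI1* (PU.1) at 1.00 (SE 0.15), *CEBPA* at 0.98 (SE 0.15) and *IRF8* at 0.31 (SE 0.25), none of them called, while *CEBPB* was called at 1.62 (SE 0.17). *NR4A1*, needed for non-classical monocytes, was the one called lower, at −1.52 (SE 0.28). Its mean log2 CPM was not above 1, so it lay at a low level.

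The machinery with which phagocytes attach, engulf and kill mostly rose. *ITGAM* (CD11b), the complement receptor chain by which mature myeloid cells are recognised, was 24.8 and 41.1 CPM with NTC and 231 and 408 CPM with shEVI1-2532, a log2 fold change of 3.26 (SE 0.16). Its partner *ITGB2* (CD18) rose by 2.59 (SE 0.16), *ITGAX* (CD11c) by 2.32 (SE 0.17), *ITGB7* by 2.45 (SE 0.20) and *ITGAL* by 1.41 (SE 0.15). In all, 6 of 10 leukocyte integrins were higher and 1 lower, the latter being *ITGB3*, a platelet integrin with 28 and 56 counts with NTC and 4 and 4 with shEVI1-2532. Of the 7 subunits of the NADPH oxidase that makes superoxide, 5 were higher and 0 lower. *CYBB*, the catalytic subunit, rose by 1.47 (SE 0.16), *CYBA* by 1.29 (SE 0.15) and *RAC2* by 1.56 (SE 0.15). *NCF1* had the largest value, 2.99 (SE 0.16), but it has near-identical pseudogene copies, which makes its count uncertain.

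Most lysosome genes rose. Of 38 tested, 26 were higher and 0 lower, with a median of 1.37, and it was 1.34 on day 3 and 1.42 on day 6. *LIPA*, the acid lipase that frees cholesterol from lipoproteins, went from 78.5 to 827 CPM on day 3 and from 44.5 to 397 CPM on day 6, a log2 fold change of 3.28 (SE 0.16). *GRN* (progranulin) was 369 and 587 CPM with NTC and 2406 and 4180.4 CPM with shEVI1-2532, a log2 fold change of 2.77 (SE 0.16). *FUCA1*, a fucosidase, rose by 2.59 (SE 0.15), *CTSA* by 2.46 (SE 0.15) and *ARSA*, the sulphatase lost in metachromatic leukodystrophy, by 2.22 (SE 0.16). The member that was not higher in either library was the collagen protease *CTSK*, at −0.34 (SE 0.32).

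Most of the granule genes tested also rose, genes whose proteins are made in sequence as neutrophils and monocytes mature. Of 11 genes of secondary and tertiary granules tested, 9 were higher and 0 lower, with a median of 2.40. The list held 17 genes, and *LCN2*, *CRISP3*, *MMP8*, *CEACAM8*, *OLFM4* and *ARG1* had too few counts to be tested. *MMP9* (gelatinase B) was 7.53 and 7.37 CPM in the NTC libraries of day 3 and day 6 and 719.7 and 281 CPM with shEVI1-2532, a 60.4-fold mean increase and the largest of the genes whose mean log2 CPM was above 3. *HP* (haptoglobin) rose from 5.41 to 74.2 CPM on day 3 and from 5.73 to 139.5 CPM on day 6, and *ORM1*, an acute phase protein with the near-identical copy *ORM2*, by 3.88 (SE 0.22). *CHI3L1* was 1.63 and 1.17 CPM with NTC and 3.96 and 19.1 CPM with shEVI1-2532, with an SE of 0.39 around its log2 fold change of 2.66, and the days lay far apart. Among 12 primary granule genes tested, 7 were higher and 2 lower, and *DEFA3* and *DEFA4* had too few counts to be tested. *PRTN3* (proteinase 3), *ELANE* (neutrophil elastase) and *AZU1*, neighbours in the genome, rose by 3.18 (SE 0.17), 3.05 (SE 0.17) and 2.72 (SE 0.17). *SRGN*, the proteoglycan on which granule contents are packed, went from 559.8 to 2132 CPM on day 3 and from 260.2 to 1695 CPM on day 6. The ribonucleases of eosinophil granules moved the other way, *RNASE2* by −2.16 (SE 0.24) and *RNASE3* by −1.67 (SE 0.32), and *MPO* was not called, at −0.35 (SE 0.17).

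Lysozyme and part of the S100 and annexin genes rose. *LYZ*, whose enzyme cleaves bacterial walls, was 198 and 155 CPM in the NTC libraries of day 3 and day 6 and 4482 and 5627 CPM with shEVI1-2532, a log2 fold change of 4.84 (SE 0.19). The alarmins *S100A8* and *S100A9*, calcium-binding proteins of the myeloid cytosol, rose by 2.08 (SE 0.16) and 2.37 (SE 0.16), the latter from 774 to 3594 CPM on day 3 and from 466 to 2669.6 CPM on day 6. *S100A12* changed by 2.10 (SE 0.20), *S100A11* by 1.34 (SE 0.15) and *ANXA1* by 1.32 (SE 0.16). Of 13 S100, annexin and related genes, which leave out *LYZ*, 7 were higher and 0 lower, and *S100A4* at −0.06 and *LGALS1* at 0.06 were near 0.

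Several of the largest gains lay outside these lists. *THBS1* (thrombospondin 1), a matrix glycoprotein of monocytes and platelets, was 3.43 and 2.89 CPM with NTC and 226 and 112 CPM with shEVI1-2532, a log2 fold change of 5.66 (SE 0.20). *LRP1*, the endocytic receptor for it and for many other ligands, rose by 5.16 (SE 0.26), and *SPARC*, a secreted collagen-binding protein, by 4.22 (SE 0.21). *CD1D*, which presents lipids to natural killer T cells, had 80 and 66 counts with NTC and 1004 and 2218 with shEVI1-2532. *LILRA5*, a receptor of monocytes, rose by 4.08 (SE 0.24) and *SESN3*, a sestrin that FOXO factors induce, by 4.12 (SE 0.24). *MATN2*, a matrix protein, rose by 5.30 (SE 0.36) and *AC090994.1*, a gene absent from the annotation used for gene types, by 4.56 (SE 0.27). Among the largest losses, *NPR3*, the clearance receptor for natriuretic peptides, went from 22.8 to 1.02 CPM on day 3 and from 45.6 to 0.642 CPM on day 6. *FAM30A*, a long non-coding RNA used in leukaemic stem cell scores, was 222 and 422 CPM with NTC and 6.97 and 9.67 CPM with shEVI1-2532, a log2 fold change of −5.22 (SE 0.18). *SVOPL*, *EVPL* (envoplakin) and *RNF220*, a ubiquitin ligase, changed by −4.69 (SE 0.20), −4.49 (SE 0.29) and −5.50 (SE 0.33). All of these had the same sign on both days, as the rule for naming them requires.

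**Figure D3:**
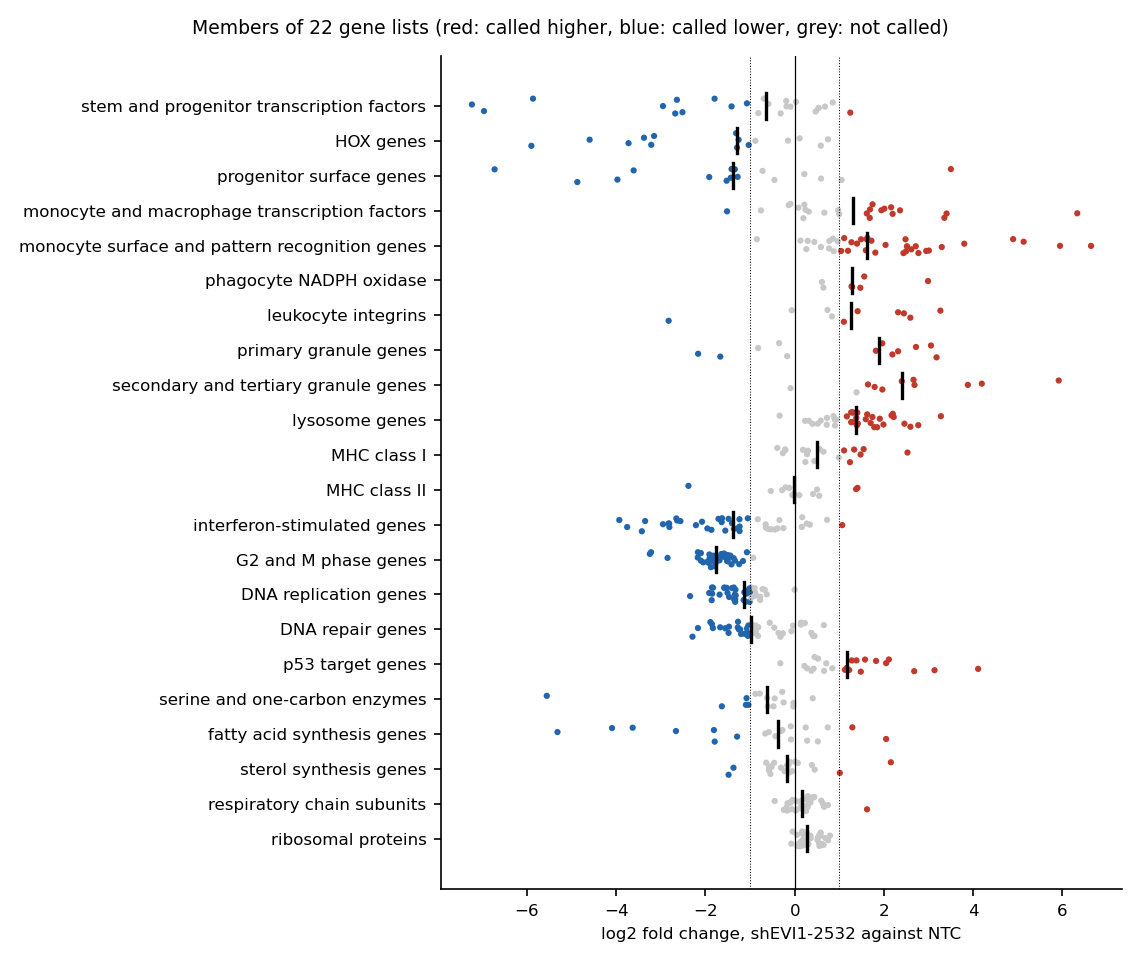
Log2 fold change with shEVI1-2532 of each tested member of 22 gene lists, with 1 point per gene, the median of each list as a black bar and dotted lines at −1 and 1. The G2 and M phase genes lie wholly left of 0, the lysosome genes lie right of it apart from CTSK, and the ribosomal proteins cluster near 0.

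Genes of cell division fell. Of 38 genes of the G2 and M phases of the cell cycle, 37 were lower and 0 higher, with a median of −1.77, and the remaining gene was the spindle kinase *AURKA* at −0.93 (SE 0.16). *HMMR*, a spindle protein, went from 48.1 to 3.86 CPM on day 3 and from 23.3 to 3.23 CPM on day 6, a log2 fold change of −3.25 (SE 0.21). *CENPE* and *CENPF*, which sit at kinetochores, changed by −3.22 (SE 0.26) and −2.85 (SE 0.19), *NUF2* by −2.17 (SE 0.20) and *KIF20B* by −2.17 (SE 0.21). The other members fell by less, most between 1 and 2.1 log2 units, as in the mitotic kinase *PLK1* with −1.50 (SE 0.15), cyclin B2 (*CCNB2*) with −1.58 (SE 0.15) and the checkpoint kinase *BUB1B* with −1.77 (SE 0.16).

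Late cell cycle genes are known to share a promoter element, the CHR (letters TTTGAA, searched on both strands), through which the DREAM and MuvB complexes hold them off in resting cells. Promoter sequences from RefSeq (GRCh38.p14, 250 bases before to 50 after each start) were at hand for 10944 of the genes tested. TTTGAA was present in 26 of 33 (78.8%) of the G2 and M phase promoters and in 1090 of 10944 (9.96%) of all of them. It was also in 10 of 30 (33.3%) of the promoters of the monocyte surface genes. Of all higher genes 122 of 1158 (10.5%) held it, and of all lower genes 169 of 1232 (13.7%). The 200 bases before the start of 3 of these genes are printed 5′ to 3′, chosen because each holds a match close to its start, with TTTGAA or its reverse complement in capitals, from chr15:59104946-59105145 (*CCNB2*), chr16:23678689-23678888 (*PLK1*) and chr15:40160869-40161068 (*BUB1B*), all on the plus strand.
CCNB2: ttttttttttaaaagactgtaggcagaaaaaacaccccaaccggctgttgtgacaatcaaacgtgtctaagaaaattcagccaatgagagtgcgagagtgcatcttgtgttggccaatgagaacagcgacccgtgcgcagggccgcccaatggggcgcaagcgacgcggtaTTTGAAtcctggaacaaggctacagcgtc
PLK1: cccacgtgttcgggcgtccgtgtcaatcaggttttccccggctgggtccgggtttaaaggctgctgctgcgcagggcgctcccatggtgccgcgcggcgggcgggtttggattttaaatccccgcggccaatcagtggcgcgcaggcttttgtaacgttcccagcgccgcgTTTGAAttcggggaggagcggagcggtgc
BUB1B: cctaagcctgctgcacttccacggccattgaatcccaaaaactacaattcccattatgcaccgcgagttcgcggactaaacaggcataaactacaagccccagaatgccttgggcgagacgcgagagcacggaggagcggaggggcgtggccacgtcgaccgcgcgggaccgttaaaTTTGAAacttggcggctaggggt
The capitals begin 29 bases before the start in *CCNB2* and *PLK1* and 23 bases before it in *BUB1B*. A match of letters is a description of the promoter and no measurement of binding.

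Most genes of DNA synthesis fell too. Of 42 tested, 29 were lower and 0 higher, with a median of −1.14. *MCM10*, which starts the replication fork, was 40.9 and 35.2 CPM with NTC and 7.11 and 7.83 CPM with shEVI1-2532, a log2 fold change of −2.34 (SE 0.18). *CLSPN* (claspin) changed by −1.92 (SE 0.19), *ORC6* of the origin complex by −1.86 (SE 0.19), *MCM3* of the helicase by −1.85 (SE 0.15) and *CDC45* by −1.85 (SE 0.17). *PCNA*, the sliding clamp, was at −0.78 (SE 0.15) and *RRM2*, a subunit of ribonucleotide reductase, at −0.90 (SE 0.15), and neither was called. The E2F element (letters TTTNNCGC, both strands) was present in 21 of 36 (58.3%) of the replication promoters and in 1110 of 10944 (10.1%) of all. It is shown in capitals in the 200 bases before *MCM3* (chr6:52284743-52284942, minus strand) and *ORC6* (chr16:46689459-46689658, plus strand), 2 of the genes just named, chosen because they hold a match. These letters were not in the same 200 bases of *MCM10*, *CLSPN* and *CDC45*.
MCM3: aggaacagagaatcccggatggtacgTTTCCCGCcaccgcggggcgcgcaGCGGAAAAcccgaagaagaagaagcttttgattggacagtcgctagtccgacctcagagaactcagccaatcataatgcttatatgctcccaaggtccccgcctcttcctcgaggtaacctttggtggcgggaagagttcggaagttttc
ORC6: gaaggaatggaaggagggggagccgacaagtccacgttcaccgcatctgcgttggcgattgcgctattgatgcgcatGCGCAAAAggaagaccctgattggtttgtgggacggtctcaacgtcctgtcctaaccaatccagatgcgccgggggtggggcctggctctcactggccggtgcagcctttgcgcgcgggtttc
In *MCM3* the matches begin 174 and 150 bases before the start, and in *ORC6* the one match begins 123 bases before it. Among 17 members of the E2F and retinoblastoma family and the factors that act with them, 8 were lower and 0 higher, with *E2F8* at −2.01 (SE 0.21), *E2F5* at −2.02 (SE 0.28), *FOXM1* at −1.67 (SE 0.17), *MYBL2* at −1.57 (SE 0.15) and *E2F2* at −1.35 (SE 0.19). *E2F3* at 0.05, *E2F4* at 0.02 and *RB1* at 0.16 were near 0.

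Some of the DNA repair genes fell. Of 41 tested, 19 were lower and 0 higher, with a median of −0.97. *XRCC2*, *BRCA1* and *BRCA2*, all of homologous recombination, changed by −2.29 (SE 0.29), −2.17 (SE 0.18) and −1.89 (SE 0.26), *RAD54L* by −1.85 (SE 0.19) and *FANCI* of the Fanconi pathway by −1.83 (SE 0.17). *PARP1*, the enzyme that the series inhibits in its other experiment, was 272 and 419.7 CPM with NTC and 127 and 169.9 CPM with shEVI1-2532, a log2 fold change of −1.20 (SE 0.15). The end joining genes *XRCC5*, *XRCC6* and *PRKDC*, at 0.14, −0.32 and −0.26, and the damage sensor *ATM*, at 0.41, were not called.

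Most p53 target genes tested rose, among them a brake on the cell cycle. *CDKN1A* (p21), an inhibitor of cyclin-dependent kinases, was 207 and 163 CPM with NTC and 613 and 490.4 CPM with shEVI1-2532, a log2 fold change of 1.58 (SE 0.15). It was the only one of 15 CDK inhibitors, cyclins and CDKs tested that was called higher, while *CCNA2* at −1.28 (SE 0.16) and *CDK2* at −1.12 (SE 0.17) were lower. Of 23 p53 target genes, 13 were higher and 0 lower, with a median of 1.16. *TNFRSF10C*, a decoy receptor for TRAIL, had 61 and 58 counts with NTC and 755 and 709 with shEVI1-2532, a log2 fold change of 4.11 (SE 0.28). *ZMAT3* rose by 3.13 (SE 0.18), *TP53INP1* by 2.68 (SE 0.17), *BTG2*, an antiproliferative gene, by 2.05 (SE 0.16) and *PHLDA3* by 1.82 (SE 0.17). Targets that were not called include *BAX* at 0.52, *BBC3* (PUMA) at 0.22 and *MDM2* at 0.84 (SE 0.15). In the *BCL2* family, 3 of 15 were higher, namely *BCL2A1* by 1.92 (SE 0.17), *BMF* by 1.15 (SE 0.15) and *MCL1* by 1.05 (SE 0.15), of which *BMF* promotes and the other two oppose death, and *BCL2* itself was at −0.24. Without the NTC library of day 3, 1 of the family was higher.

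Most interferon-stimulated genes fell, and their ratios to NTC were lower on day 6 than on day 3. Of 42 tested, 27 were lower and 1 higher, with a median log2 ratio of −0.94 on day 3 and −1.87 on day 6. In 40 of the 42 the ratio was lower on day 6. From day 3 to day 6 the median level of these genes differed by 0.59 log2 units in NTC and by −0.37 with shEVI1-2532. *OAS2*, which makes the messenger that activates RNase L, was 40.9 and 110.1 CPM in the NTC libraries of day 3 and day 6 and 5.96 and 3.15 CPM with shEVI1-2532, a log2 fold change of −3.93 (SE 0.32). *IFIT1*, which binds viral RNA caps, went from 16.5 to 2.99 CPM on day 3 and from 29.0 to 0.749 CPM on day 6, and *IFITM1*, which blocks viral entry, changed by −3.43 (SE 0.21). *OASL* changed by −3.35 (SE 0.37) and *OAS1* by −2.95 (SE 0.28). *MX1*, an antiviral GTPase, showed a wide gap between days, at 24.8 and 87.2 CPM with NTC and 15.2 and 9.41 CPM with shEVI1-2532, so the day 3 libraries were close and the day 6 libraries far apart. Of the 42, 6 had log2 fold changes above 0, and *HERC5*, a ligase for *ISG15*, was the only one called higher, at 1.06 (SE 0.18). Of the factors that carry the interferon signal, *STAT2* was at −0.45 (SE 0.17) and not called, and *IRF9* was lower at −1.71 (SE 0.33).

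The element that interferon-stimulated genes share (letters GAAANNGAA, both strands) was present in 22 of 32 (68.8%) of their promoters and in 750 of 10944 (6.85%) of all. It is in capitals in the 200 bases before *IFIT1* (chr10:89392423-89392622), *IFIT3* (chr10:89327797-89327996) and *ISG15* (chr1:1013297-1013496), all on the plus strand and shown because each carries it more than once.
IFIT1: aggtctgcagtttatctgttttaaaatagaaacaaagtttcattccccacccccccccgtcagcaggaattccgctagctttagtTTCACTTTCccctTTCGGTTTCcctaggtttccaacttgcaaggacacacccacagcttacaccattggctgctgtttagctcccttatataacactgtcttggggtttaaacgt
IFIT3: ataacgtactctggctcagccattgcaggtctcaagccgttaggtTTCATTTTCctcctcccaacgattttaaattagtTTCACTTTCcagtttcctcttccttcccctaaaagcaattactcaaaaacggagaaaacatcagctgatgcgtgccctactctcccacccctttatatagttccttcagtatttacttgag
ISG15: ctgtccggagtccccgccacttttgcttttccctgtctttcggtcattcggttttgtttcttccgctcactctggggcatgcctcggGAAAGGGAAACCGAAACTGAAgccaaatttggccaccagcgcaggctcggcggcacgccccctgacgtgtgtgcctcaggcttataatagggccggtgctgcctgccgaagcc
Matches begin 115 and 102 bases before the start in *IFIT1*, 155 and 121 bases in *IFIT3*, and 113, 107 and 101 bases in *ISG15*, where they overlap one another. Motifs of other factors were also counted. Shares are given for promoters of higher genes, of lower genes and of all. GAGGAAGT, a core of PU.1 sites, was in 58 of 1158 (5.01%), 32 of 1232 (2.60%) and 315 of 10944 (2.88%). TTGCNNAA of C/EBP was in 102 of 1158 (8.81%), 94 of 1232 (7.63%) and 798 of 10944 (7.29%). AGATAA of GATA factors was in 67 of 1158 (5.79%), 73 of 1232 (5.93%) and 585 of 10944 (5.35%). GAAANNGAA was in 98 of 1158 (8.46%), 103 of 1232 (8.36%) and 750 of 10944 (6.85%). TCACNCCAC of SREBP was in 1 of 19 (5.26%) of the fatty acid synthesis promoters and 119 of 10944 (1.09%) of all, and TGATGNAA of *ATF4* in 33 of 1232 (2.68%) of the lower genes, 33 of 1158 (2.85%) of the higher genes and 191 of 10944 (1.75%) of all. The long *EVI1* motifs GACAAGATA and GAAGATGAG were in 0 of 1232 (0%) and 4 of 1232 (0.325%) of the lower genes, in 0 of 1158 (0%) and 5 of 1158 (0.432%) of the higher genes and in 3 of 10944 (0.0274%) and 31 of 10944 (0.283%) of all.

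**Figure D4:**
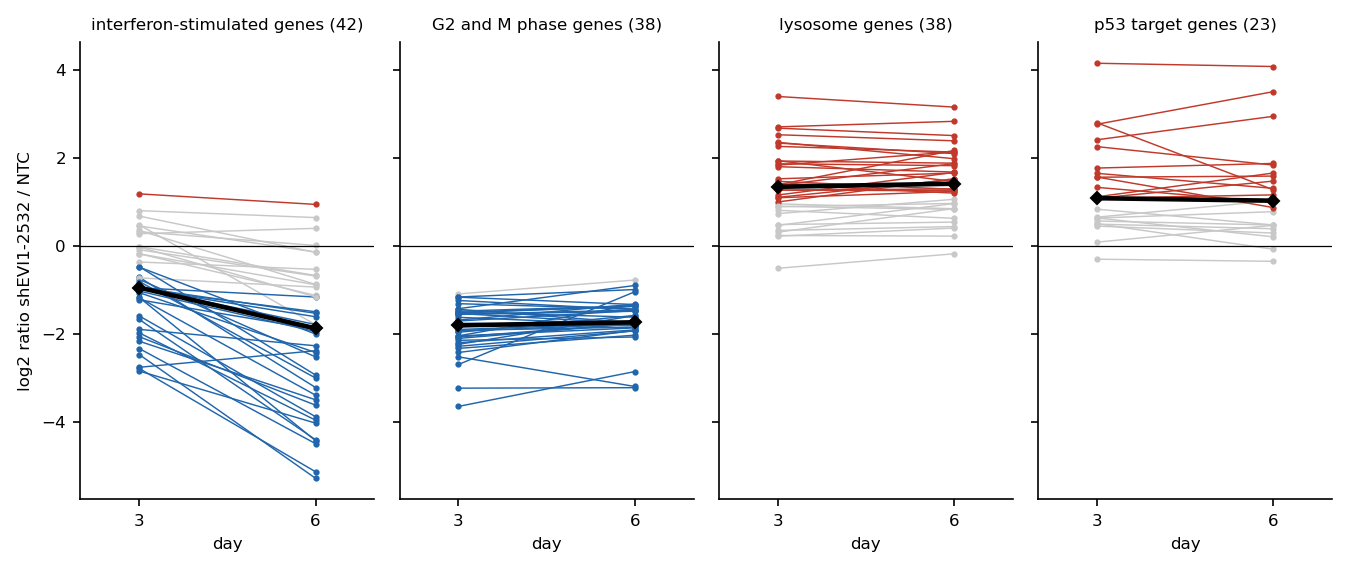
Log2 ratio of shEVI1-2532 to NTC on day 3 and day 6 for each member of 4 gene lists (thin lines, blue where called lower, red where called higher, grey otherwise), with the median in black. The median of the interferon-stimulated genes goes from −0.94 to −1.87 between the days, while those of the G2 and M phase, lysosome and p53 target genes stay nearly level.

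Antigen presentation genes moved in part. Of 18 genes of the class I pathway, 6 were higher and 0 lower, with a median of 0.50, and without the NTC library of day 3 the higher genes numbered 3. *NLRC5*, which activates class I genes, was 4.27 and 6.00 CPM with NTC and 24.9 and 34.1 CPM with shEVI1-2532, a log2 fold change of 2.53 (SE 0.19). The light chain *B2M* rose by 1.33 (SE 0.15), and *HLA-C* and *HLA-B*, genes alike enough that reads can be shared, by 1.24 (SE 0.15) and 1.11 (SE 0.15). Of 13 class II genes, 2 were higher and 1 lower, with a median of −0.02. *CD74*, the invariant chain, was at −0.12 (SE 0.16) and *HLA-DRA* at −0.02 (SE 0.15), while *HLA-DQA1* and *HLA-DQB1* rose by 1.41 (SE 0.16) and 1.38 (SE 0.15), and *HLA-DOA*, which restrains peptide loading, changed by −2.38 (SE 0.28).

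Some of the secreted signals and of the cytokine receptors rose. Of 23 chemokines and inflammatory cytokines, 11 were higher and 2 lower, with a median of 0.99. *CCL2*, which draws monocytes, went from 33.7 to 269.9 CPM on day 3 and from 37.1 to 242 CPM on day 6, a log2 fold change of 2.85 (SE 0.16). *IL1B* (interleukin-1β) rose by 2.39 (SE 0.17), *CCL5* by 2.32 (SE 0.18), *CXCL16* by 2.42 (SE 0.21) and *CCL22* by 2.46 (SE 0.23), whereas *VEGFA* changed by −1.29 (SE 0.19). Of 18 cytokine receptors, 9 were higher and 2 lower, the latter being *FLT3* and *KIT*. Without the NTC library of day 3, 5 receptors were higher and 0 lower, and without that of day 6 there was 1 lower. *CSF3R*, the G-CSF receptor, was 64.2 and 82.4 CPM with NTC and 230.5 and 376 CPM with shEVI1-2532, a log2 fold change of 2.02 (SE 0.15). *TGFBR2* rose by 2.07 (SE 0.15), *IL17RA* by 1.46 (SE 0.15), *IFNGR1* by 1.40 (SE 0.15) and *IL3RA* by 1.16 (SE 0.16). The receptor chains for GM-CSF, the factor in the medium, were not called, at 0.72 (SE 0.15) for *CSF2RA* and 0.91 (SE 0.15) for *CSF2RB*.

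In metabolism, single enzymes fell within pathways of which most members were not called. *PHGDH*, the first enzyme of serine synthesis, was 138 and 189 CPM in the NTC libraries of day 3 and day 6 and 2.94 and 4.02 CPM with shEVI1-2532, so 2.12% of the control level was left, and its log2 ratio was −5.56 and −5.56 on the 2 days. *PSPH*, the last step, changed by −1.04 (SE 0.18), *MTHFD1*, which handles one-carbon units, by −1.63 (SE 0.15) and *MTR* by −1.08 (SE 0.18), while *SHMT2* was at −0.48 (SE 0.14) and *MTHFD2* at −0.78 (SE 0.15) and were not called. Of 16 genes in this list, 5 were lower and 0 higher, and without the shEVI1-2532 library of day 3 there were 3 lower. *ATF4*, the stress factor that drives several of these enzymes, was itself 644 and 586 CPM with NTC and 204 and 205 CPM with shEVI1-2532, a log2 fold change of −1.58 (SE 0.15). Of 23 genes in its list, 6 were lower and 2 higher, with *PCK2* at −1.84 (SE 0.15), *SLC7A5* at −1.02 (SE 0.15), *STC2* at −1.21 (SE 0.22) and *NUPR1* at 2.06 (SE 0.28). *CBS*, at −2.91 (SE 0.69), has a near-identical copy in this build (*CBSL*), and its count is uncertain. Of 20 aminoacyl-tRNA synthetases, 2 were lower, *MARS* by −1.51 (SE 0.15) and *AARS* by −1.30 (SE 0.15).

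The desaturases, which put double bonds into fatty acids, fell. *FADS2* was 114 and 317 CPM with NTC and 4.20 and 5.48 CPM with shEVI1-2532, a log2 fold change of −5.32 (SE 0.22). *SCD*, the stearoyl-CoA desaturase, went from 116 to 8.21 CPM on day 3 and from 220.1 to 10.7 CPM on day 6, and *FADS1* changed by −3.63 (SE 0.23). *SREBF1*, the factor that drives fatty acid synthesis, changed by −1.79 (SE 0.17) and *LPIN1*, a phosphatidate phosphatase, by −1.81 (SE 0.16). *FASN*, the synthase, was at −0.66 (SE 0.15) and *ACLY* at −0.58 (SE 0.15), and neither was called. Acyl-CoA synthetases rose instead, *ACSL1* by 2.05 (SE 0.16) and *ACSL4* by 1.29 (SE 0.15), so that of 20 genes 7 were lower and 2 higher. In sterol synthesis most genes were not called, with 2 of 23 lower and 2 higher. *INSIG1*, which holds back SREBP, rose by 2.15 (SE 0.18). In lipid uptake and storage *CD36* rose by 1.81 (SE 0.15), the droplet protein *PLIN2* by 1.95 (SE 0.17) and the transporter *ABCA7* by 1.25 (SE 0.17), and the sterol receptor *NR1H3* changed by −1.03 (SE 0.21), the list counting 3 higher and 1 lower of 13, and 5 and 0 without the shEVI1-2532 library of day 6.

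Glycolysis had 3 higher and 3 lower of 22. *PGK1*, an abundant enzyme of its second stage, was 1198 and 827 CPM with NTC and 293 and 284 CPM with shEVI1-2532, a log2 fold change of −1.79 (SE 0.16), and *PDK1* changed by −1.11 (SE 0.16). *GAPDH* at 0.13 and *ENO1* at 0.19 lay near 0, while *HK3*, the hexokinase of granulocytes and monocytes, rose by 1.94 (SE 0.16), *ALDOA* by 1.32 (SE 0.15) and *HK1* by 1.29 (SE 0.16). Polyamine enzymes had 1 higher, *SMOX* by 2.11 (SE 0.17), and 2 lower of 12. Few genes of the housekeeping machinery were called. None of 40 ribosomal protein genes was called (median 0.27, and −0.03 with library totals alone), 1 of 35 respiratory chain subunits was higher (*COX7C*, 1.62 (SE 0.15)), and 1 of 35 ribosome biogenesis genes was lower (*GNL3*, −1.10 (SE 0.15)). Of 13 genes of the mitochondrial genome, 1 was higher (*MT-ND3*, 1.39 (SE 0.15)), with a median of 0.70, and all 13 had log2 fold changes above 0. Without the NTC or the shEVI1-2532 library of day 6 there were 4 and 3 higher. Of the other mitochondrial transcripts tested, 2 of 2 ribosomal RNAs and 6 of 15 transfer RNAs were higher.

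Among 25 chromatin and DNA methylation enzymes, 2 were lower and 0 higher. *DNMT3B*, a de novo DNA methyltransferase, went from 102 to 11.3 CPM on day 3 and from 157 to 12.1 CPM on day 6, a log2 fold change of −3.44 (SE 0.18), and *TET1*, which oxidises methylcytosine, changed by −2.05 (SE 0.28). *DNMT3A* was at 0.08, *TET2* at 0.22 and *EZH2* at −0.97 (SE 0.18), and none of these was called. Of 18 genes known in other systems as *EVI1* targets, 4 were lower, *ERG*, *ADGRG1*, *KIT* and *C1orf61* (12 and 24 counts with NTC, 0 and 1 with shEVI1-2532), and 2 higher, among them *FOS* by 2.63 (SE 0.26). Without the NTC or the shEVI1-2532 library of day 6, 4 were higher.

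Markers of other lineages were looked at in the same libraries, since a myeloid line can carry transcripts of several. *IGHM*, the heavy chain constant region of IgM, was 24.3 and 51.0 CPM with NTC and 0.274 and 0.267 CPM with shEVI1-2532, a log2 fold change of −7.05 (SE 0.27). *IGHD*, which lies next to it on chromosome 14 and was named after its values were seen, had 776 and 1381 counts with NTC and 0 and 0 with shEVI1-2532, log2 ratios of at most −7.49 and −8.38 against a floor of 3 counts per library. *CD79B*, a chain of the B cell receptor, changed by −1.52 (SE 0.30), while *CD79A* was at −0.11, and 3 of the 8 B lymphoid markers tested were higher and 3 lower. Without the NTC library of day 3 there were 0 B lymphoid markers higher, and without the shEVI1-2532 library of day 3 there was 1. Of 11 T and NK cell markers 3 were lower, with *CD3E* at −1.74 (SE 0.25) and perforin (*PRF1*) at −1.52 (SE 0.23). Platelet lineage markers had 4 of 11 lower and 0 higher, including *ITGA2B* (CD41) at −1.31 (SE 0.15) and *GFI1B* at −1.80 (SE 0.21), and of 5 erythroid markers 1 was lower, with *GATA1* not called at −0.39. Mast cell, basophil and eosinophil markers had 5 of 12 higher and 1 lower, the tryptases *TPSAB1* and *TPSB2*, near-identical to each other, by 2.13 (SE 0.19) and 2.03 (SE 0.22), and eosinophil peroxidase (*EPX*) by −1.86 (SE 0.17). Without the NTC library of day 3 or the shEVI1-2532 library of day 6, 3 of these were higher. Dendritic cell markers had 3 higher and 3 lower of 14, with *CD1C* at 2.62 (SE 0.20) and *CLEC9A* at −1.82 (SE 0.25), and without either NTC library there was 1 lower.

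Epithelial markers were included because the culture medium is conditioned by bladder carcinoma cells. Their summed level over 10 tested and 7 untested genes was 327 and 258 CPM with NTC and 1179.5 and 974 CPM with shEVI1-2532. Almost all of it was keratin 17, as *KRT17* was 305 and 227 CPM with NTC and 1131 and 928 CPM with shEVI1-2532, a log2 fold change of 1.96 (SE 0.15). *KRT8* and *KRT18* rose by 1.66 (SE 0.21) and 1.45 (SE 0.20), *UPK3A* by 1.66 (SE 0.28), and *KRT7* changed by −2.35 (SE 0.29), for 5 higher and 2 lower. The defining epithelial genes EPCAM, CDH1, KRT5, KRT19 and TP63 had 0 to 7 counts in each of the 4 libraries and were not tested. The part of these levels in the other results was not tested.

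The 2 *EVI1* shRNAs, which left different levels of *MECOM*, were then set against each other. In a fit of all 6 knockdown libraries with the day as a block, 4505 of 18606 genes (24.2%) differed between shEVI1-2532 and shEVI1-2531 at an adjusted p under 0.05. Named genes were picked in the shEVI1-2532 libraries, so a difference between the shRNAs is partly built into the choice, and values are given without a count. For *CD34* the log2 ratios to NTC were −5.98 and −7.48 with shEVI1-2532 and −1.72 and −3.02 with shEVI1-2531 on day 3 and day 6, a difference of −4.35 (95% confidence interval −5.01 to −3.69, adjusted p = 9.32e-06) by edgeR. *PHGDH* had −5.56 and −5.56 against −1.45 and −2.19, a difference of −3.75 (95% confidence interval −4.19 to −3.31, adjusted p = 1.99e-06) in the same edgeR test. *CD14* had 4.77 and 5.46 against 4.61 and 4.58, and its difference of 0.54 (95% confidence interval 0.09 to 0.99, adjusted p = 0.0769) in edgeR's test was not past the threshold. *SESN3* differed by −0.03 (95% confidence interval −0.55 to 0.49, adjusted p = 0.943) and *CYBB* by −0.22 (95% confidence interval −0.54 to 0.11, adjusted p = 0.324) in edgeR's test, so neither passed, though the intervals leave room for a difference.

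For *ELANE* the shRNAs went in opposite directions. It was above NTC with shEVI1-2532, at log2 ratios of 2.95 and 3.16, and below it with shEVI1-2531, at −3.29 and −2.39, a difference of 5.86 (95% confidence interval 5.32 to 6.39, adjusted p = 2.78e-07) by edgeR. Of its neighbours in the genome, *AZU1* had 2.36 and 3.08 against −0.64 and 0.03 and *PRTN3* 2.89 and 3.46 against 0.23 and 0.89. Signs were also opposite on both days in *RNASE2*, which had −3.03 and −1.32 against 0.47 and 0.48, *KIT* −1.57 and −0.99 against 0.28 and 1.16 and *HLA-DQA1* 1.68 and 1.13 against −1.03 and −0.80. Other genes had 1 sign with both shRNAs, as in *PGK1* (−2.03 and −1.54 with shEVI1-2532 and −0.12 and −0.07 with shEVI1-2531) and the cell cycle gene *CCNB2* (−1.70 and −1.46 and −0.43 and −0.40). Whether these genes follow the depth of the knockdown or the shRNA sequence cannot be told apart with 1 shRNA at each depth.

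**Figure D5:**
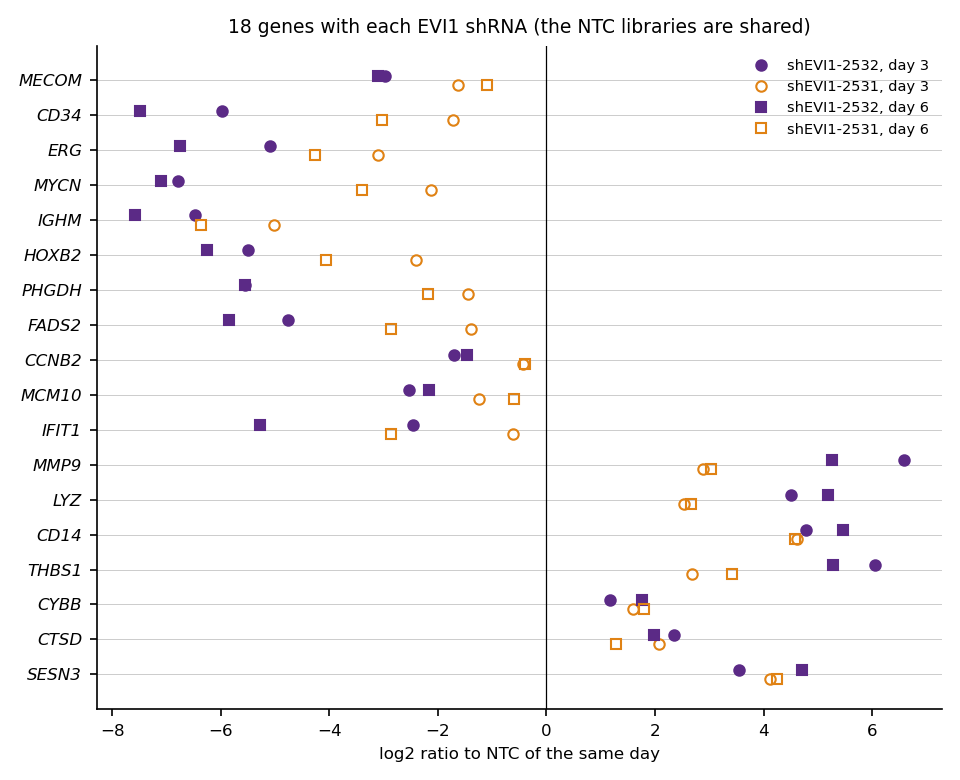
Log2 ratio to the NTC library of the same day for 18 genes with shEVI1-2532 (filled) and shEVI1-2531 (open) on day 3 (circles) and day 6 (squares). In MECOM, CD34, MYCN, PHGDH and FADS2 both shEVI1-2532 points lie left of both shEVI1-2531 points, and in CD14, CYBB and SESN3 the points of the shRNAs lie close together.

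Some called genes moved further on 1 day than on the other. *C3*, the central complement protein, was 5.53 and 7.39 CPM with NTC and 23.3 and 171 CPM with shEVI1-2532, so its day 6 level with shEVI1-2532 stood far above the other libraries. *ID3* rose by log2 ratios of 2.83 and 4.92 on day 3 and day 6, *MATN2* by 3.97 and 6.27, *PLAC8* by 0.44 and 2.12 and the adhesion molecule *ALCAM* by 0.42 and 1.91. *MDFI*, an inhibitor of myogenic factors, had −2.97 and −5.47 and *RNF220* −4.49 and −6.68. Each of these days is 1 library, so the gap between days has no error of its own.

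By gene type, 131 of 920 long intergenic non-coding RNAs were higher (14.2%) and 190 lower (20.7%), and of 12999 protein-coding genes 1458 were higher (11.2%) and 1460 lower (11.2%). Processed pseudogenes, whose reads can come from their parent genes, were higher in 169 of 1527 (11.1%) and lower in 56 (3.67%). No test was made between the gene types.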

How the data were processed

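RNA-Seq of MUTZ-3 cells was performed by the study with a stranded mRNA kit, and the submitters' processing notes name STAR, Picard, featureCounts and GRCh38 (hg38), without versions. The authors deposited raw read counts per gene and library, which were used here as deposited. A TPM column that the authors deposited beside them was not used, since it divides by the whole genomic span of each gene. The strand setting of the counting is not given in the sources used here.

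Libraries were grouped from their labels. A gene was tested when 2 or more of the 4 NTC and shEVI1-2532 libraries held 10 or more counts of it, with edgeR 4.0.16 in R 4.3.3 (TMM, quasi-likelihood test, day as a block), with Benjamini-Hochberg adjustment over 18120 genes. With 1 residual degree of freedom, the spread of a gene leans on that of all genes. The difference between the shRNAs came from a fit of 6 libraries. CPM used TMM, and a log2 ratio within a day carries counting error only. On simulated data for shEVI1-2532 against NTC, with 17697 genes, edgeR recovered 99% of genes changed by 1.5 log2 units, and 2.45% of its calls were false. The simulation gave all genes a common dispersion, the same expected level on both days and changes only in well-counted genes. The real data differ in these points, so those shares do not measure the error of the calls reported here. DESeq2 1.42.0 and limma 3.58.1 were alternatives, beside other scalings, filters and thresholds.

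Named genes are *MECOM*, the 12 largest changes in each direction with a mean log2 CPM above 3 and 1 sign on both days, up to 5 called members of each list in its main direction and up to 3 in the other with a mean log2 CPM above 1, the genes the study names, up to 5 genes in each direction whose days differed most, and known members of a list. Some genes that meet this rule are not reported here. The members and lists were chosen with earlier results of these data known. Promoters came from RefSeq (GRCh38.p14) and were matched by gene symbol, and gene types from a GENCODE annotation by identifier.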

Additional observations from a re-analysis of the deposited data

Results flagged for a closer look

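Of the genes whose mean log2 CPM was above 0, 4 lay more than 1 log2 unit on opposite sides of NTC on the 2 days, and the difference between the days was not tested, since each day has 1 library of each group. *U2AF1*, a splicing factor on chromosome 21, had 8186 counts with NTC and 132 with shEVI1-2532 on day 3, and 177 and 399 on day 6, so its log2 ratio was −5.43 on day 3 and 1.64 on day 6, a change of 7.07. *PWP2*, a ribosome biogenesis gene on the same chromosome, had log2 ratios of 2.91 and −2.36, a change of −5.26. *HSPA1A*, a heat shock protein, had 1.38 and −1.52, a change of −2.89, and *HLA-DRB6*, a class II pseudogene, 1.32 and −1.44, a change of −2.76. *U2AF1* has a near-identical copy in this build (*U2AF1L5*), *HSPA1A* has one in *HSPA1B*, and *HLA-DRB6* resembles other DRB genes, so how reads are split between copies bears on these counts, and its part in the result was not tested.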

How the results depend on the processing

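The counts of genes higher and lower with shEVI1-2532 (2043 and 2130) moved by over 1.5 times under 3 alternatives. Scaling to the library total alone gave 1317 and 3282, where the median of all genes shifted by −0.30. A test against a fold change of 2 (glmTreat) gave 1013 and 962, with 1974 of one direction on both days in place of 4171. Without the threshold on size there were 4137 and 3938, with 8068 of one direction. The remaining alternatives gave 1550 to 2053 higher and 1518 to 2179 lower genes, the leave-one-out fits 1550 to 1745 higher, 1567 to 1877 lower and 3106 to 3533 of one direction on both days. These fits borrow the shEVI1-2531 libraries, so a lone library is assumed to vary like the other groups. In each of them part of the main calls was lost, and part of the genes they called were not called in the main fit. Similar totals therefore do not mean the same genes. Without the replicate block (day left out), 1584 were higher, 1623 lower and 3207 of one direction, and the genes that differed between the shRNAs numbered 921 in place of 4505. DESeq2 gave 1600 and 1518 and kept 74.6% of the calls of the main fit. *MECOM* kept its call throughout, at −3.04 without the replicate block.

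Of 189 genes other than *MECOM* that the naming rule picked before known members were added, 144 kept their call under every alternative run. The other 45 lost it at least once, and none changed direction. Genes named only as known members of a list or after their values were seen, such as *PARP1* and *FLT3*, were not in this check. Without the NTC library of day 3, 11 lost it (*BMF*, *CBS*, *HERC5*, *HLA-B*, *HLA-C*, *IL3RA*, *KIT*, *MCL1*, *NUPR1*, *RNASE3* and *TCN1*, between −3.14 and 1.93). Without that of day 6, 8 did (*ALCAM*, *CBS*, *CD79B*, *HOXA9*, *MX1*, *NR1H3*, *PLAC8* and *SLC7A5*, between −1.55 and 0.73). Without the shEVI1-2532 library of day 3, 4 did (among them *CDK2*, *PSPH* and *RNASE3*, all 4 between −0.97 and −0.71), and without that of day 6, 8 (*ALCAM*, *CBS*, *CD79B*, *CD109*, *HOXA9*, *NR1H3*, *PLAC8* and *SLC7A5*, between −0.97 and 0.77). Without the replicate block 9 lost it (*ABCA7*, *ALCAM*, *CBS*, *CD79B*, *CD109*, *EPX*, *IFNGR1*, *RNASE3* and *SLC7A5*). With library totals alone, 15 did, all higher genes now between 0.74 and 0.99. Most losses came with the test against a fold change of 2, where 38 lost it. Among these were *HOXA9*, *HOXB3*, *HOXB4*, *KIT*, *LMO2*, *CDK2*, *MCL1*, *PSPH* and *IL3RA*. With DESeq2, 5 lost it (*CBS*, *CHI3L1*, *MX1*, *PLAC8* and *RNASE3*), and with all 6 libraries as 3 groups *CBS* did. The medians of the *BCL2* family, glycolysis, respiratory chain, ribosomal protein and B lymphoid lists changed sign between scalings. In the leave-one-out fits, list counts of 0 to 2 also moved by 1 or 2 genes. Larger list counts moved as well, and fewer interferon-stimulated genes were called lower without the NTC library of day 6 than in the main fit. Medians of longer lists moved in these fits too. That of the interferon-stimulated genes ranged from −2.03 without the NTC library of day 3 to −0.91 without that of day 6. That of the progenitor surface genes ranged from −1.61 without the shEVI1-2532 library of day 3 to −0.88 without that of day 6. The cause of these changes was not tested.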

Other observations

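Transcripts counted at 0 or nearly so in both shEVI1-2532 libraries were not limited to *IGHD*. *NCR2*, an activating receptor of natural killer cells, had 134 and 515 counts with NTC on day 3 and day 6 and 0 and 0 with shEVI1-2532. *KIAA0087*, a non-coding transcript, had 218 and 374 counts with NTC and 0 and 0 with shEVI1-2532, and *RPH3A*, rabphilin, 303 and 836 against 0 and 6. These genes were named after their values were seen.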
